A study of Mus musculus with 12 samples.

Results

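Genes that lie on chromosome 7 within 10 Mb of Gdpd5, the gene that encodes GDE2, are described here in mouse cortex. The 9 genes are Myo7a, Mrpl48, Rnf169, Rps3, Chrdl2, Acer3, Coa4, Prcp and Me3, out of 36047 genes measured and out of 538 genes within that distance. They were chosen on measured values: the gene sums of normalized counts and the share of each transcript in its gene's TPM (a level per transcript length) across all 4 groups of animals. Their differences between genotypes are therefore given as descriptions, without p-values. Every test below is one fitted to the whole table or counted over genes taken by position, with or without the 9.

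RNA of mouse cortex was sequenced from wild type (WT) and Gde2KO animals at 4 and at 19 months of age, with 3 libraries in each of 4 groups and 12 in all. Gde2KO mice lack Gde2 in the whole animal (Gde2-/-), and WT mice of the same ages were the controls. Male and female mice were used in the study, and the sex behind each library, the embryonic stem cell strain and the number of backcrosses are not given in the sources used here. A gene tied to the targeted allele by position is inherited with it, so a difference caused by the loss of Gdpd5 and one carried by the chromosome segment around it cannot be told apart in this design.

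GDE2 is a membrane enzyme that cuts the lipid anchor of certain cell-surface proteins and is known for its roles in neuronal differentiation and survival. When a gene is disrupted by targeting in embryonic stem cells, DNA next to it comes from the stem cell strain, and crossing to another strain replaces it only where recombination falls between. The neighbours of a targeted gene are for this reason often examined apart from the rest of the genome. Kallisto, which made the values used here, assigns reads to annotated transcripts by the short words (k-mers) they share, so reads that differ from the reference sequence or come from a near-identical copy can be assigned elsewhere or dropped.

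The 4-month libraries held an estimated 46434270 to 59728494 reads. At 19 months 4 libraries held 36915259 to 44604721, but WT library A held 6734475 and Gde2KO library A 3707928, so that 1 read was worth 4.66 and 8.29 normalized counts there. Gde2KO library 3 at 4 months stood apart by a normalized total of 41229086 against 31917431 to 35949224 in the others of that age. Its scaled TPM summed to 1452472, against 990390 to 1080876 in those others. The median log2 difference over all genes tested was 0.11 at 4 months and -0.02 at 19 months, and median-ratio scaling moved it by -0.10 at 4 months, so each 4-month difference below is to be read against that shift. Among lists of cell type and region markers, all 3 neuron and all 4 cortical excitatory neuron markers were detected and none of the 11 lists had a gene called by limma at either age. Of the markers tested, 9 of 38 at 4 months and 9 of 39 at 19 months had an unadjusted p under 0.05 by limma. Over all genes it was 2025 of 19035 and 1285 of 18583, a smaller share at both ages. The summed level of the 4 striatum markers ranged over 748 to 11071 normalized counts in WT and 4657 to 15759 in Gde2KO at 4 months, and over 773 to 1229 and 1258 to 3643 at 19 months. The 4 hippocampus markers summed to 713 to 7389 and 702 to 1085 at 4 months, and to 470 to 667 and 693 to 1161 at 19 months. At 4 months WT libraries 1 and 2 held 7389 and 5958 for hippocampus and 884 and 748 for striatum. Both pairs of sums lay outside the Gde2KO ranges. WT library 3, at 713 for hippocampus and 11071 for striatum, lay within them. The 4 astrocyte markers summed to 20499 to 22266 in WT and 22297 to 30605 in Gde2KO at 19 months. The 3 neuron markers summed to 103197 to 121894 normalized counts in WT and 122266 to 178362 in Gde2KO at 4 months, and to 137736 to 143712 and 124401 to 131468 at 19 months, so that the sums were apart at both ages in opposite directions. The 3 interneuron markers summed to 19274 to 24114 and 24579 to 30452 at 4 months. No marker of these lists was at 0 in all libraries, and the part of tissue composition in the results below was not tested. In bulk tissue, fewer cells of a type and less RNA per cell cannot be told apart.

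Gdpd5 itself, at chr7:99381414-99461877 on the plus strand of GRCm38, was measured at 684, 702 and 1199 normalized counts in WT and 417, 585 and 403 in Gde2KO at 4 months. In the older mice it was at 1065, 1129 and 952 in WT and 441, 456 and 560 in Gde2KO. In log2 terms the difference was -0.85 (SE 0.25, limma adjusted p = 0.463) at 4 months and -1.11 (SE 0.12, limma adjusted p = 0.0111) at 19 months. Reads were still assigned to the targeted gene in every Gde2KO library.

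The junctions that separate the transcripts of 5 of the genes are shown first because the levels of these transcripts are described below. Those levels rest on all bases that set a transcript apart, of which a junction can be a small part. In Rnf169-201, 6921 of 7117 words occur in no other transcript, and in Me3-202 2549 of 4455. In Rps3-202 it is 24 of 922. Each sequence joins the last 15 bases of the upstream exon, in lower case, to the first 15 bases of the downstream exon, in capitals, 5′ to 3′ on the coding strand, read from the GENCODE transcripts on GRCm38. For Rps3 (minus strand) the introns removed are chr7:99479471-99479875 in Rps3-201, chr7:99478316-99479903 in Rps3-202 and chr7:99479328-99481696 in Rps3-205:
Rps3-201: tgctcctcagacaggGTGTGCTGGGCATCA
Rps3-202: tactatgtcgacacaGCTGGCCTTGAACTC
Rps3-205: gcttgcggttcgaagGGTGGGAAGCCAGAG

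For Me3 (plus strand) the same donor exon was joined to different acceptors, over the intron chr7:89806751-89818620 in Me3-206 and chr7:89806751-89833696 in Me3-202 and Me3-203:
Me3-206: ggcggtgacagataaGAACTGAGTCAAACA
Me3-202 and Me3-203: ggcggtgacagataaGTTCGGAATAAATTG

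For Rnf169 (minus strand) different first exons were joined to a shared exon, over the intron chr7:99955541-99979971 in Rnf169-201 and chr7:99955541-99965241 in Rnf169-202:
Rnf169-201: cgctcgcggagccagAGTTTATATTCAGAA
Rnf169-202: cagagctgctgtgagAGTTTATATTCAGAA

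For Mrpl48 (minus strand) the first exons of 3 kinds of transcript met a shared exon, over the introns chr7:100574515-100607890, chr7:100574515-100607557 and chr7:100574515-100582989:
Mrpl48-207: ggcgcggagactgagGTGCTGGGTGTGTGG
Mrpl48-206: gggaccgagttccggGTGCTGGGTGTGTGG
Mrpl48-204 and Mrpl48-208: ggaaccctgggaaagGTGCTGGGTGTGTGG

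For Prcp (plus strand) the transcripts used different donors with 1 acceptor, over the intron chr7:92917827-92919001 in Prcp-201 and chr7:92917722-92919001 in Prcp-202:
Prcp-201: aactctcaggttcagGCAGTGGTCTCCAGT
Prcp-202: gtatggttccctgtgGCAGTGGTCTCCAGT

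Myo7a, at chr7:98051060-98119524 on the minus strand and 1262 kb before Gdpd5, encodes an unconventional myosin, a motor protein best known from the hair cells of the inner ear and from the retina. It had the largest difference of the 9 genes. At 4 months it was at 795, 749 and 790 normalized counts in WT and 138, 98.2 and 81.2 in Gde2KO. The older mice had 852, 887 and 878 in WT and 224, 164 and 202 in Gde2KO. Every Gde2KO library lay below every WT library at both ages, and the levels of the 3 WT libraries of an age lay close together. The ratio of means was 7.36-fold lower at 4 months and 4.44-fold lower at 19 months, with log2 differences of -2.91 (SE 0.21) and -2.16 (SE 0.13). On the TPM scale the log2 difference was -2.28 at 4 months and -1.74 at 19 months.

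The long transcripts of Myo7a were lower in the same way. Myo7a-202 was at 315 ± 46.2 normalized counts (mean ± SD, n = 3) in WT at 4 months and 22.8 ± 3.04 in Gde2KO, and at 343 ± 34.3 and 16.7 ± 28.8 at 19 months. Myo7a-204 was at 336 ± 36.9 and 53.0 ± 23.2 at 4 months. Myo7a-202 holds no 31-base word that another transcript lacks, so its share is an estimate, and the short transcripts Myo7a-208 and Myo7a-211 took shares of 0% to 87.5% and 0% to 60.6% of the gene's TPM from library to library without order.

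Among the 9 genes, Mrpl48, Coa4 and Me3 encode mitochondrial proteins. Mrpl48, a protein of the large subunit of the mitochondrial ribosome at chr7:100545751-100608301 and 1084 kb after Gdpd5, was measured at 1831, 1887 and 2074 normalized counts in WT at 4 months. The Gde2KO libraries of that age were at 1130, 1029 and 1594. At 19 months the WT libraries were at 2031, 2054 and 1841 and the Gde2KO libraries at 971, 883 and 969. No Gde2KO library reached the WT range at either age, and Gde2KO library 3 at 4 months was the nearest to it. This was a log2 difference of -0.65 (SE 0.18) at 4 months, -0.84 without that library, and -1.07 (SE 0.07) at 19 months. On the TPM scale it was -1.05 and -1.63.

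Mrpl48-207 begins at the outermost start and Mrpl48-208 at one further in. Mrpl48-207 was at 666 ± 62.4 normalized counts in WT and 281 ± 118 in Gde2KO at 4 months, and at 645 ± 39.9 and 163 ± 12.6 at 19 months. Mrpl48-208 was at 973 ± 46.5 and 844 ± 159 at 4 months, and at 1033 ± 60.3 and 707 ± 50.7 at 19 months. The share of Mrpl48-208 in the gene's TPM was 17.9%, 20.1% and 17.3% in WT and 34.0%, 31.7% and 28.9% in Gde2KO at 4 months. It was 16.5%, 20.3% and 20.6% in WT and 45.0%, 37.5% and 39.9% in Gde2KO at 19 months. The groups did not overlap at either age. The other transcript from the inner start, Mrpl48-204, went the other way at 19 months, with 14.6% ± 5.55 in WT and 2.14% ± 1.96 in Gde2KO.

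Mrpl48-207 and Mrpl48-208 differ in length, at 1625 and 4285 bases, as well as in start. The part of the start in their shares was not tested. The 100 bases before the outer and the inner start are shown as background. They are read on the minus strand from RefSeq promoters on GRCm38.p6, before the start at position 100608301 (printed chr7:100608302-100608401) and the RefSeq start nearest to the GENCODE start of Mrpl48-208 (position 100583102), at position 100583130 (printed chr7:100583131-100583230):
outer start: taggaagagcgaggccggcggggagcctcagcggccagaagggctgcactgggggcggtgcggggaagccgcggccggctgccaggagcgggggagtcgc
inner start: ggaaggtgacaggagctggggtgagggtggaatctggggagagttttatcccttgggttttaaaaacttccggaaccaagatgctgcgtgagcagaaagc

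The dinucleotide CG, which reads the same on both strands, occurred 24 times in the 300 bases around the outer start and 9 times around the inner one, against a median of 7 over 32851 RefSeq promoters of the same length. At least as many were found in 19.98% and 45.8% of those promoters.

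Mrpl48-ps, a processed pseudogene of Mrpl48 on another chromosome (chr4:88599175-88599810, minus strand), showed the opposite pattern. It was at 0.80, 0 and 0 normalized counts in WT at 4 months and 68.7, 42.1 and 90.3 in Gde2KO, and at 0, 0 and 3.11 in WT at 19 months and 16.6, 40.1 and 49.7 in Gde2KO. It was called at 4 months (limma adjusted p = 0.00704) and not at 19 months (limma adjusted p = 0.351), although no Gde2KO library overlapped a WT library at either age. The pseudogene sequence of 636 bases lies 12 edits from its best match in Mrpl48-208, an identity of 98.1%, and 344 of its 606 words of 31 bases also occur in Mrpl48. Reads of the 2 genes can therefore be exchanged, and the levels of both are uncertain to that extent. Mrpl48 also shares 678 words with Rab6a, and 16.2% of its words with any other gene.

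Coa4, an assembly factor of cytochrome c oxidase at chr7:100537071-100540369, lies 1075 kb after Gdpd5. It was at 99.4, 92.8 and 109 normalized counts in WT and 209, 140 and 301 in Gde2KO at 4 months. At 19 months the values were 149, 88.1 and 80.0 in WT and 109, 147 and 113 in Gde2KO. The groups were apart at 4 months and overlapped at 19 months, where WT library A, one of low depth, held the highest value. The log2 difference was 1.04 (SE 0.28) at 4 months, or 0.77 without Gde2KO library 3, which held the highest value of that age. At 19 months it was 0.26 (SE 0.27), or 0.62 without both libraries of low depth. The shares of its coding transcripts Coa4-201 and Coa4-202 overlapped between genotypes at both ages.

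Me3, the mitochondrial NADP-dependent malic enzyme that turns malate into pyruvate, is the farthest of the 9 genes, 9.53 Mb before Gdpd5 at chr7:89632392-89854359. It was at 2109, 1668 and 1830 normalized counts in WT and 3085, 2812 and 3507 in Gde2KO at 4 months. At 19 months it was at 1813, 1810 and 1697 in WT and 2055, 2191 and 1916 in Gde2KO. All Gde2KO libraries were above all WT libraries at both ages, by a wide gap at 4 months and a narrow one at 19 months. In log2 terms the difference was 0.75 (SE 0.14) at 4 months and 0.21 (SE 0.07) at 19 months. On the TPM scale it was 0.41 at 4 months and -0.05 at 19 months.

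Its transcripts differed in opposite directions. Me3-206, a processed transcript of 693 bases, made up 29.8%, 36.8% and 30.3% of the gene's TPM in WT at 4 months and 2.32%, 1.99% and 0.93% in Gde2KO. At 19 months it made up 27.3%, 22.8% and 26.1% in WT and 15.8%, 0.30% and 13.5% in Gde2KO. The 3 Gde2KO libraries of 19 months thus differed among themselves, with library B below the Gde2KO values of 4 months and libraries A and C between it and WT. By normalized counts the share of Me3-206 differed by -8.63 points at 4 months and -5.01 at 19 months, against -30.5 and -15.5 by TPM. The coding transcript Me3-202, which uses the farther acceptor, was at 636 ± 99.5 normalized counts in WT and 1416 ± 73.2 in Gde2KO at 4 months, and at 595 ± 10.9 and 812 ± 121 at 19 months.

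**Figure D1:**
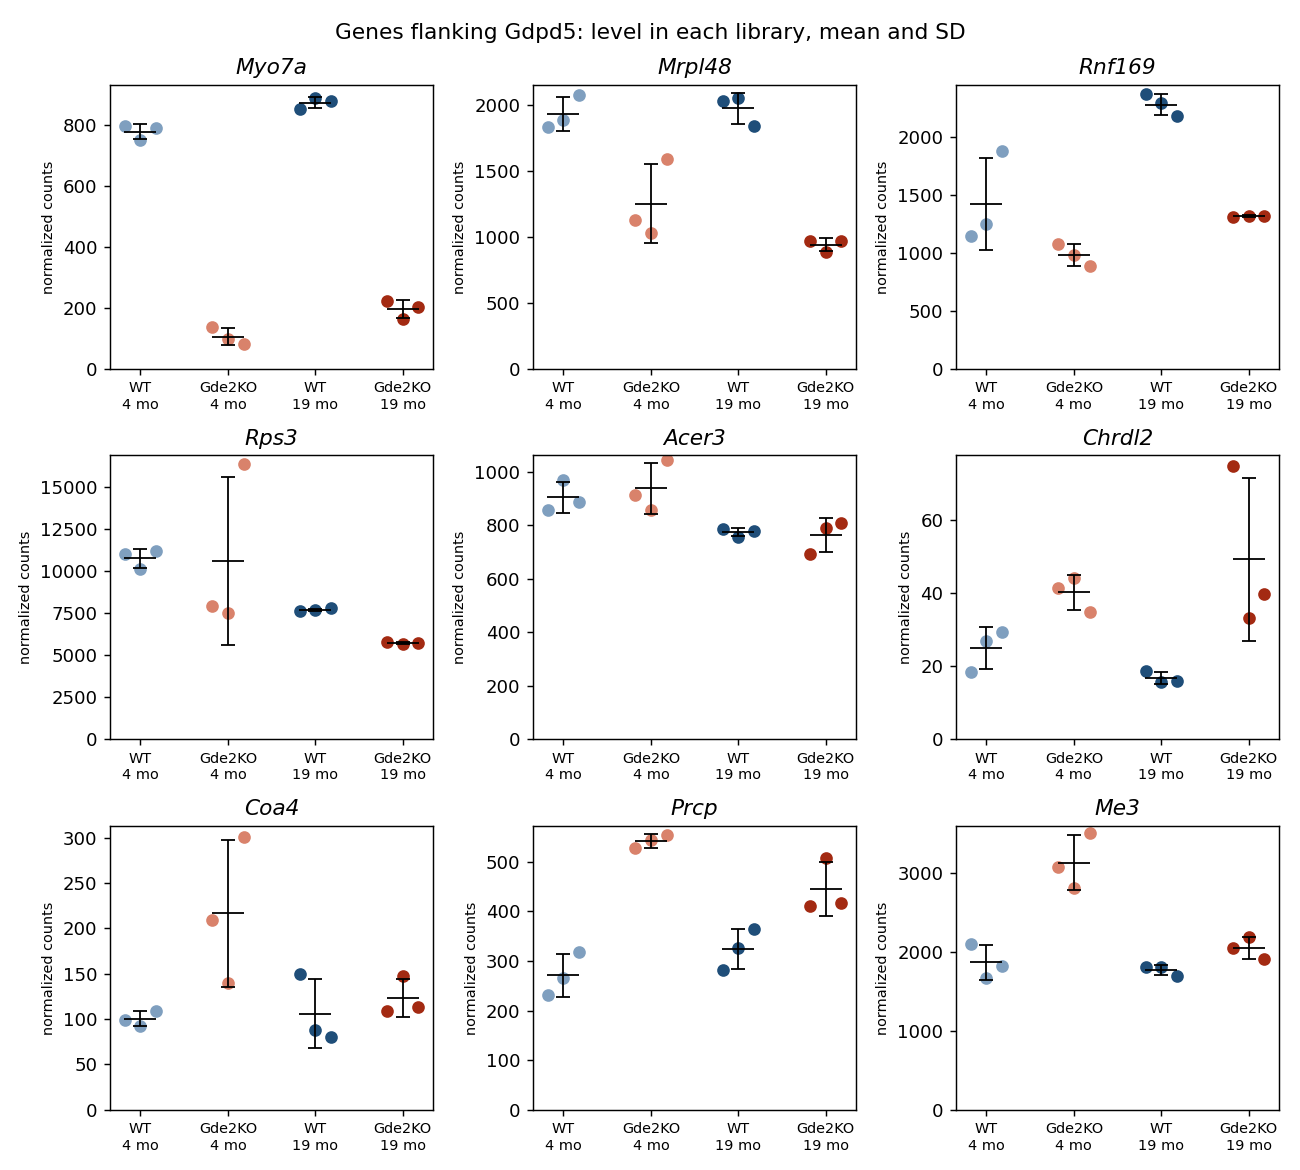
Level of each of the 9 genes in normalized counts (vertical axes, from 0) in the 4 groups of 3 libraries; points are libraries, bars the mean and SD. Gde2KO libraries lie below WT at both ages for Myo7a, Mrpl48 and Rnf169 and above WT at both ages for Chrdl2, Prcp and Me3, while Acer3 overlaps and Rps3 is split by 1 Gde2KO library of 4 months.

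Rps3, a protein of the small subunit of the cytosolic ribosome that also takes part in DNA repair, lies on the minus strand at chr7:99477896-99483738, only 16.0 kb after Gdpd5. It was at 11020, 10148 and 11194 normalized counts in WT and 7954, 7545 and 16370 in Gde2KO at 4 months. In the older mice it was at 7656, 7691 and 7793 in WT and 5766, 5703 and 5732 in Gde2KO. The Gde2KO libraries were lower at 19 months with almost no spread, and at 4 months 2 were lower and library 3, the one with the high total, was higher than any WT library. This was a log2 difference of -0.12 (SE 0.28) at 4 months, -0.48 without that library, and -0.43 (SE 0.04) at 19 months. The sign at 4 months turned on the TPM scale, where the difference was 0.20. Gde2KO library 3 held 1194 TPM there, against 694 to 775 in WT. Gde2KO libraries 1 and 2 held 689 and 688 TPM, below every WT library. On that scale the 19-month difference was -0.01, with 510 ± 16.7 TPM in WT and 508 ± 22.7 in Gde2KO.

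The shares of the Rps3 transcripts differed at both ages. Rps3-202, which skips from a shortened exon to the last one as in the junction above, made up 1.40%, 2.55% and 0.48% of the gene's TPM in WT and 36.1%, 40.4% and 50.1% in Gde2KO at 4 months. The older mice had shares of 12.2%, 10.97% and 7.76% in WT and 40.3%, 41.8% and 40.9% in Gde2KO. Rps3-201 went the other way, from 37.7% ± 3.64 in WT to 13.2% ± 1.93 in Gde2KO at 4 months and from 35.4% ± 0.79 to 12.1% ± 0.74 at 19 months. In normalized counts Rps3-202 was at 138 ± 91.4 in WT and 5033.5 ± 2770 in Gde2KO at 4 months, and Rps3-201 at 8526 ± 603.5 and 3826 ± 1988. Rps3-202 is a transcript of 952 bases and Rps3-201 one of 1908, and a read of a shorter transcript weighs more in TPM. Only 24 of the 922 words of 31 bases in Rps3-202 occur in no other transcript, so its level rests on few distinguishing reads.

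**Figure D2:**
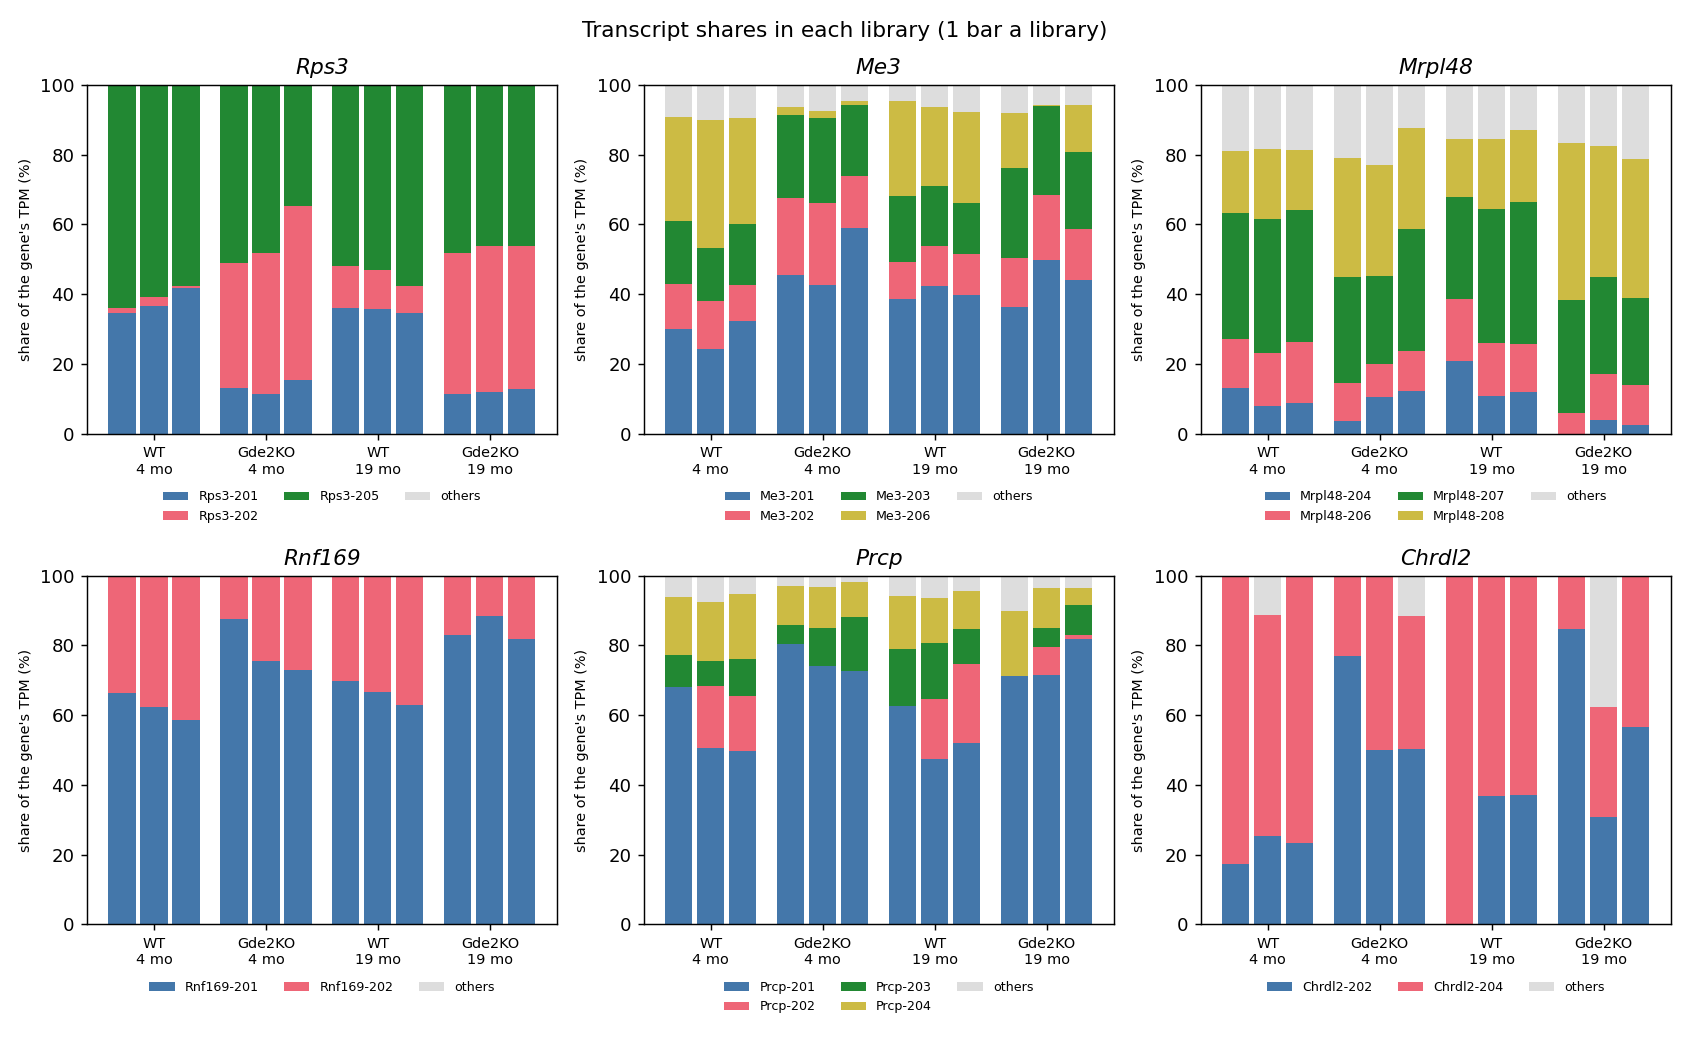
Share of each named transcript in its gene's TPM (vertical axes, 0 to 100%), 1 bar a library in the 4 groups, for 6 of the genes; grey is the sum of the other transcripts. Rps3-202 is 0.48% to 12.2% in WT and 36.1% to 50.1% in Gde2KO, and Me3-206 is 22.8% to 36.8% in WT and 0.30% to 15.8% in Gde2KO.

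Rnf169 encodes a RING finger protein that binds ubiquitin-marked chromatin at DNA double-strand breaks. It lies at chr7:99920254-99980448, 458 kb after Gdpd5, and shares none of its 7608 words of 31 bases with any other gene. It was at 1144, 1248 and 1882 normalized counts in WT and 1075, 982 and 885 in Gde2KO at 4 months. The older mice had 2371, 2296 and 2184 in WT and 1310, 1324 and 1318 in Gde2KO. The gap between the groups was narrow at 4 months, where WT library 3 was far above the other WT libraries, and wide at 19 months. The log2 difference was -0.51 (SE 0.20) at 4 months, -0.29 without WT library 3, and -0.79 (SE 0.06) at 19 months. On the TPM scale it was -0.86 and -1.10. Of the 3 WT libraries of 4 months, library 3 also held the highest Gdpd5 level and the highest striatum marker sum, and the part of these in the difference was not tested.

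The short processed transcript Rnf169-202, which starts from its own inner exon, made up 33.7%, 37.6% and 41.3% of the gene's TPM in WT and 12.3%, 24.5% and 27.1% in Gde2KO at 4 months. The shares of the older mice were 30.2%, 33.3% and 37.1% in WT and 17.1%, 11.5% and 18.1% in Gde2KO. Every Gde2KO share was below every WT share. Both transcripts were lower in Gde2KO at 19 months, Rnf169-201 at 1302.5 ± 10.1 normalized counts against 2213 ± 102 in WT and Rnf169-202 at 15.1 ± 3.73 against 70.7 ± 7.82. By normalized counts instead of TPM the share of Rnf169-201 differed by 2.04 points at 4 months and 1.96 at 19 months.

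Chrdl2, Acer3 and Prcp encode a secreted protein and enzymes. Chrdl2, a chordin-like antagonist of bone morphogenetic proteins at chr7:100006172-100034728 and 544 kb after Gdpd5, was the lowest of the 9 genes. It was at 18.4, 27.0 and 29.3 normalized counts in WT and 41.4, 44.2 and 34.9 in Gde2KO at 4 months. At 19 months the values were 18.6, 15.8 and 15.9 in WT and 74.6, 33.1 and 39.8 in Gde2KO. All Gde2KO libraries were above all WT libraries, the highest value coming from Gde2KO library A at 19 months, where 3 reads are worth 24.9 normalized counts. In log2 terms the difference was 0.70 (SE 0.28) at 4 months and 1.44 (SE 0.41) at 19 months, or 1.17 without both libraries of low depth.

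In Chrdl2 the difference was in the coding transcript Chrdl2-202, at 3.97 ± 1.57 normalized counts in WT and 20.2 ± 6.99 in Gde2KO at 4 months, and at 2.85 ± 2.47 and 28.7 ± 25.8 at 19 months. Chrdl2-204, a retained intron at chr7:100006172-100008347, was at 20.2 ± 4.14 and 19.5 ± 6.98 at 4 months. Its share of the gene's TPM was accordingly lower in Gde2KO, at 74.2% ± 9.85 against 37.0% ± 13.5 at 4 months and 75.4% ± 21.3 against 30.1% ± 14.2 at 19 months. Without both libraries of low depth the 19-month difference was -25.6 points instead of -45.3.

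Prcp encodes a lysosomal carboxypeptidase that removes the last residue after a proline from peptides such as angiotensin II. It lies at chr7:92874470-92934583, 6.45 Mb before Gdpd5. It was at 231, 265 and 318 normalized counts in WT and 527, 544 and 554 in Gde2KO at 4 months. At 19 months it was at 282, 326 and 364 in WT and 411, 507 and 416 in Gde2KO. In normalized counts the groups did not overlap at either age. The ratio of means was 1.999-fold higher at 4 months and 1.37-fold higher at 19 months, with log2 differences of 1.01 (SE 0.16) and 0.46 (SE 0.14). On the TPM scale the log2 difference was 0.80 at 4 months and 0.24 at 19 months, where the groups overlapped, with WT at up to 9.26 TPM and Gde2KO from 9.05.

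The share of the main coding transcript of Prcp was higher in Gde2KO at both ages. Prcp-201 made up 68.0%, 50.6% and 49.8% of the gene's TPM in WT and 80.5%, 74.2% and 72.6% in Gde2KO at 4 months, and 54.1% ± 7.79 and 74.9% ± 6.09 at 19 months. Prcp-202 was listed at 0 in every Gde2KO library of 4 months and also in WT library 1, while the other WT libraries held 46.9 and 52.3 normalized counts. In the older mice it was at 0, 58.6 and 79.8 in WT and 0.00058, 36.5 and 3.81 in Gde2KO, so that the groups overlapped. Only 28 words of 31 bases set Prcp-202 apart from every other transcript.

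Acer3, an alkaline ceramidase that splits ceramide into sphingosine and a fatty acid, lies at chr7:98206389-98321208, 1060 kb before Gdpd5. Its total did not separate the genotypes. It was at 857, 969 and 888 normalized counts in WT and 913, 856 and 1043 in Gde2KO at 4 months, and at 784, 757 and 780 in WT and 691, 789 and 809 in Gde2KO at 19 months. This was a log2 difference of 0.05 (SE 0.13) and -0.02 (SE 0.09), whose sizes are below their errors. The sign at 4 months turned to -0.05 with median-ratio scaling and to -0.13 on the TPM scale. The short transcript Acer3-203, annotated for nonsense-mediated decay, made up 21.1%, 38.8% and 24.0% of the gene's TPM in WT and 19.7%, 7.98% and 8.54% in Gde2KO at 4 months, where it was at 12.03 ± 5.38 and 4.72 ± 2.74 normalized counts. At 19 months the shares overlapped. By normalized counts the share differed by -0.80 points at 4 months.

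**Figure D3:**
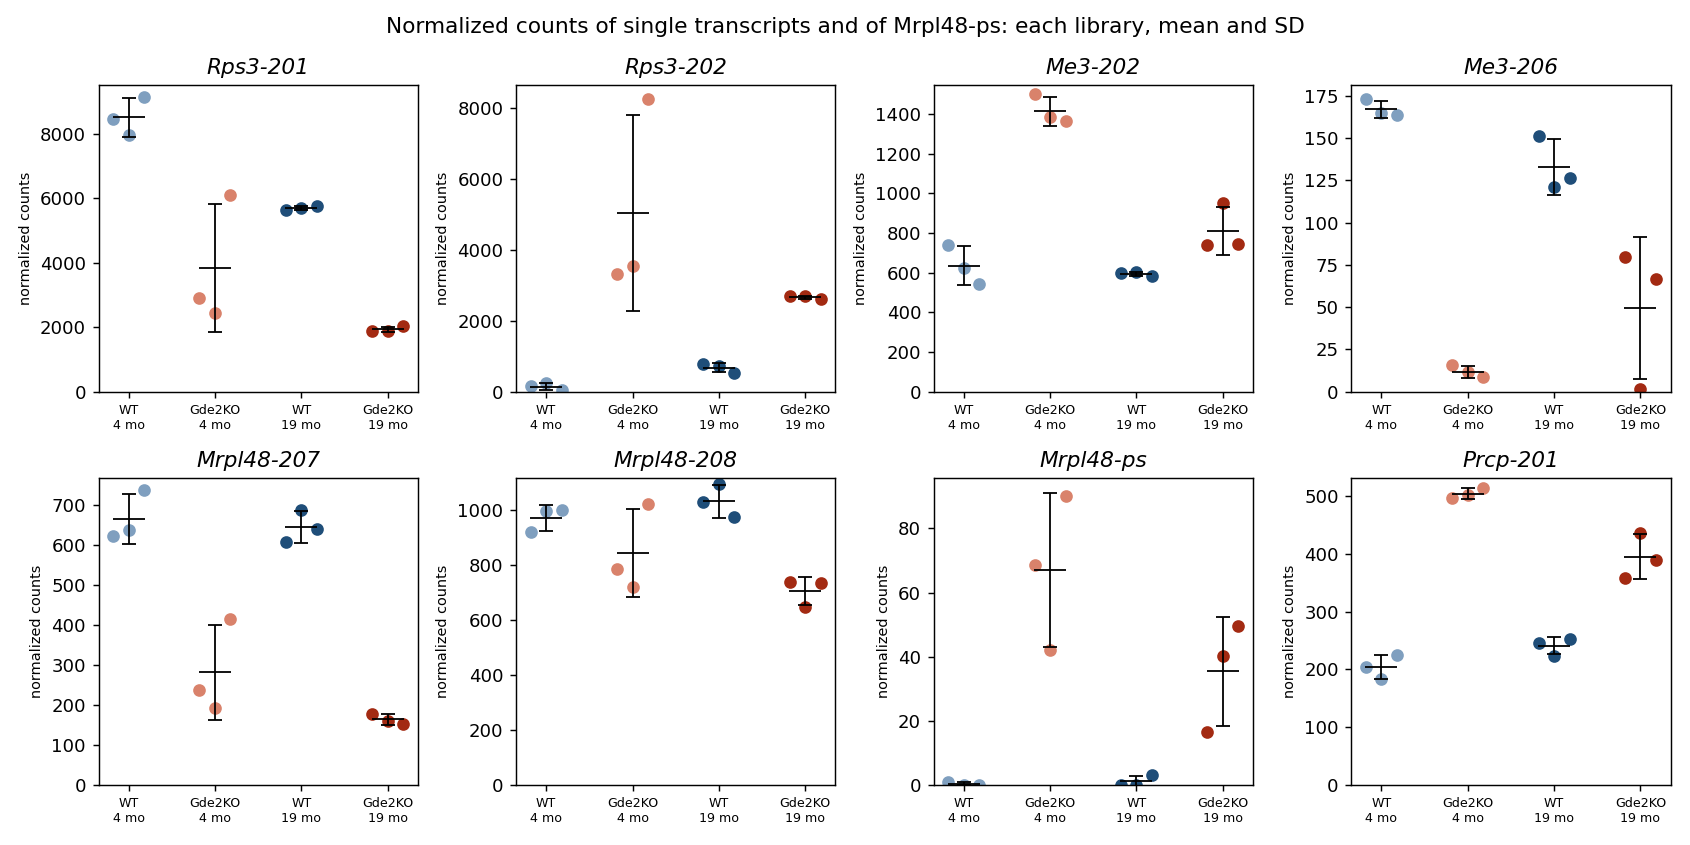
Normalized counts (vertical axes, from 0) of 7 single transcripts and of the pseudogene Mrpl48-ps in the 4 groups of 3 libraries; points are libraries, bars the mean and SD. Rps3-202 and Mrpl48-ps are higher in every Gde2KO library than in any WT library of the same age, and Rps3-201, Me3-206 and Mrpl48-207 are lower.

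Per length, the levels of the 9 genes in WT at 4 months were, in order, Rps3 at 724 ± 44.5 TPM, Mrpl48 at 68.8 ± 5.997, Me3 at 64.1 ± 7.34, Myo7a at 17.1 ± 0.32, Rnf169 at 16.8 ± 5.72, Acer3 at 10.6 ± 1.37, Prcp at 7.20 ± 1.502, Coa4 at 6.35 ± 0.48 and Chrdl2 at 0.76 ± 0.19. The neighbouring pairs Mrpl48 and Me3, Myo7a and Rnf169, and Prcp and Coa4 did not differ beyond their spread. In Gde2KO of the same age Me3 at 86.0 ± 16.9 TPM was above Mrpl48 at 33.7 ± 7.93, and Myo7a at 3.83 ± 2.13 was below Coa4 at 14.2 ± 5.68 and Prcp at 12.5 ± 0.88.

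The calls over the whole table put numbers beside these descriptions. At gene level 1 of the 9 genes, Myo7a, was called at 4 months (adjusted p under 0.1 and a natural-log fold change beyond 0.5), against 0.126% of 19035 genes tested. At 19 months 3 were called, Myo7a, Mrpl48 and Rnf169, all lower, against 0.0969% of 18583. For transcript usage 5 were called at 4 months, Acer3, Chrdl2, Me3, Mrpl48 and Rps3, against 0.997% of 12234 genes, and 1 at 19 months, Rps3, against 0.171% of 12253. The usage counts were unsteady: within 10 Mb they ran from 2 to 10 at 4 months and from 1 to 3 at 19 months when 1 library was left out, with the 10 without Gde2KO library 2, and 7 were called at 19 months without both libraries of low depth. Nothing is read from these counts because the same values chose the genes.

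Genes taken by position give the surroundings, with and without the 9. The counts outside the 9 leave out genes chosen on these same values. Few calls there follow in part from that choice, and nothing is read from them. Of the genes within 10 Mb, 252 were tested at 4 months and 235 at 19 months, and the called ones were the same 1 and 3 genes. No gene outside the 9, of 243 and 226 tested, was called at gene level, and none of 111 and 114 was called for transcript usage by diffSplice, where 10 and 4 had an unadjusted p under 0.05. Genes outside the 9 were called for usage when libraries were left out, 4 of the 10 at 4 months without Gde2KO library 2 (Eed, Fam168a, Nars2 and Sytl2) and 5 of the 7 at 19 months without both libraries of low depth (Ndufc2, Rrm1, Slco2b1, Trim12a and Trim68). Without WT library 3 at 4 months, 16 genes within 10 Mb were called, 4 of them among the 9 (Coa4, Me3, Myo7a and Prcp), as were 1510 of 18798 genes in all. WT libraries 1 and 2, left in that fit, were apart from every Gde2KO library in the hippocampus and striatum sums. The part of this was not tested. At an unadjusted p under 0.05 by limma, 19 of the 243 and 26 of the 226 were found, against 2025 of 19035 and 1285 of 18583 over all genes. The median absolute log2 difference outside the 9 genes was 0.25 at 4 months and 0.22 at 19 months, against 0.24 and 0.12 over all genes. Olfactory receptor genes with large errors were among those within 10 Mb, 1 of them at -1.68 (SE 1.25) at 19 months. These comparisons with all genes were not matched for level, so no effect of position is read from them.

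WT and Gde2KO libraries did not overlap for 7 of the 9 genes at 4 months, against 15.4% of all genes tested, and for 7 at 19 months, against 14.2%. At both ages and in the same direction, 3 of the 9 were lower in Gde2KO (Myo7a, Mrpl48 and Rnf169), against 0.227% of 18040 genes, and 3 were higher (Chrdl2, Prcp and Me3), against 0.388%. Among the other genes within 10 Mb, 3 of 221 separated in this way, or 1.36%, all higher in Gde2KO: Tpbgl, Arap1 and Olfml1, which are named here after their values were seen. By distance, 6 of 62 genes within 2 Mb, 0 of 70 between 2 and 5 Mb, 3 of 98 between 5 and 10 Mb and 3 of 159 between 10 and 20 Mb did so, with the chosen genes among them, against 94 of 16538 on other chromosomes, or 0.57%. Outside the 9, those counted up to 10 Mb were Tpbgl and Arap1 within 2 Mb and Olfml1 between 5 and 10 Mb. The rest were chosen on these same values, so no trend with distance is read from the counts.

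The genes directly beside Gdpd5 were not among those that separated at both ages. Serpinh1, a collagen chaperone 28.2 kb before it, was at 562 ± 51.4 normalized counts in WT and 471 ± 41.5 in Gde2KO at 4 months (log2 difference -0.26, SE 0.14) and at 603 ± 33.4 and 577 ± 47.5 at 19 months. Klhl35, a kelch-like protein 4.13 kb after it, was at 52.6 ± 7.90 and 58.0 ± 14.3 at 4 months and at 38.7 ± 14.0 and 50.4 ± 0.96 at 19 months. Neither passed the test at either age, with limma adjusted p of 0.493 and 0.856 for Serpinh1 and 0.823 and 0.753 for Klhl35. Tpbgl, which lies 162 kb after Gdpd5, was at 203 ± 23.7 and 272 ± 5.62 at 4 months and at 121 ± 8.29 and 186 ± 16.0 at 19 months.

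At the limit of 10 Mb, the tested genes just inside were Tmem135 at 9.98 Mb before Gdpd5, with log2 differences of 0.20 (SE 0.16) and 0.11 (SE 0.08), and Trim66 at 9.99 Mb after it, with 0.62 (SE 0.33) and -0.15 (SE 0.06). Just outside were Rab38 at 10.9 Mb before it, with -1.99 (SE 0.87) and -0.82 (SE 0.72), and Rpl27a at 10.1 Mb after it, with 0.47 (SE 0.31) and -0.05 (SE 0.06).

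**Figure D4:**
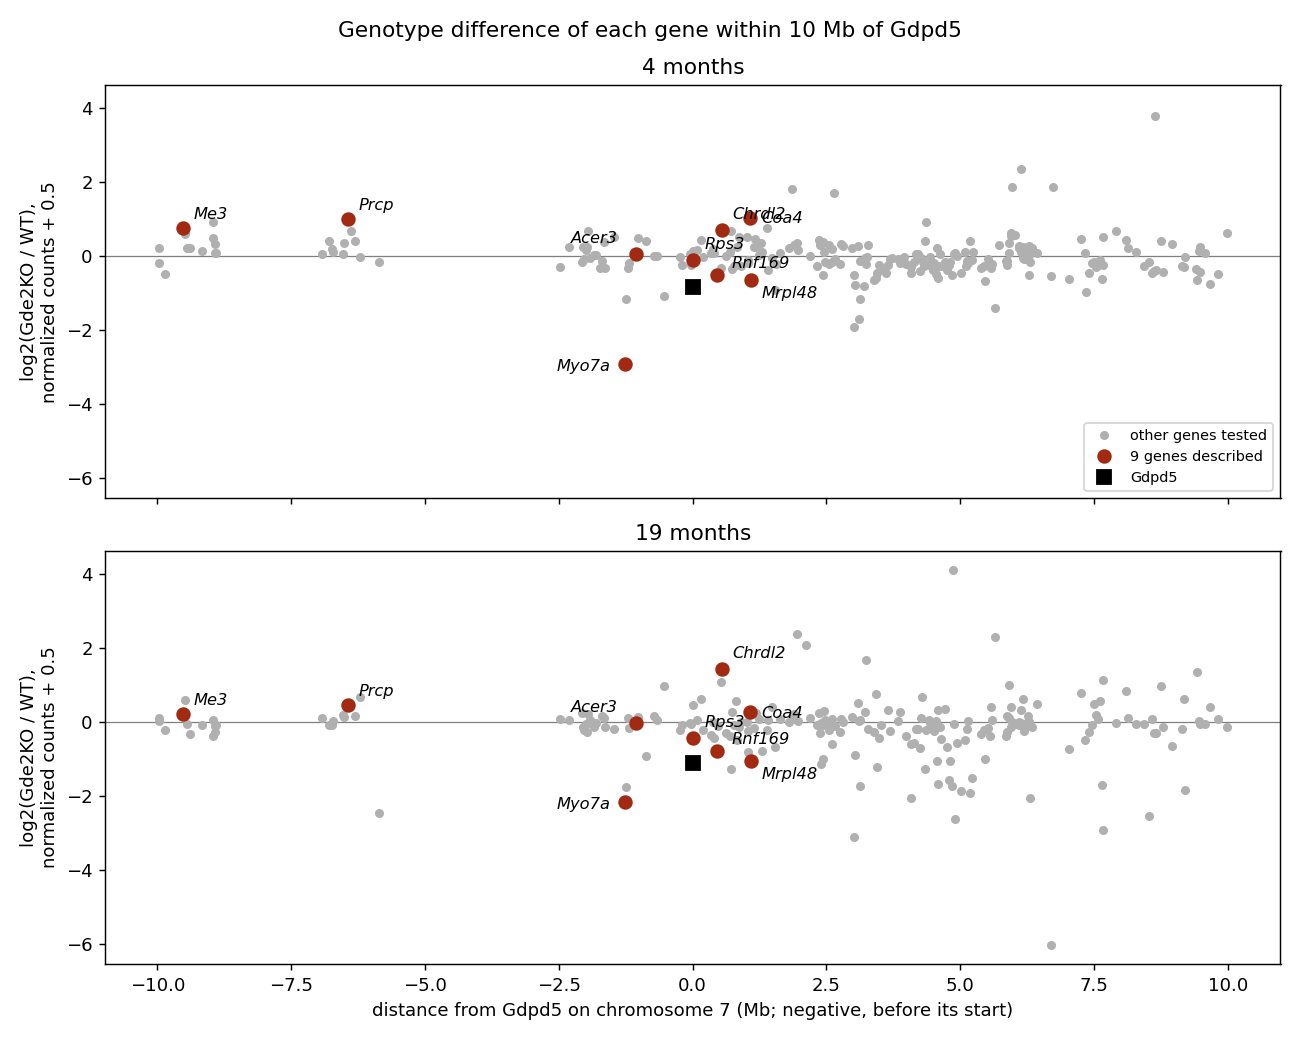
Log2 difference between Gde2KO and WT in normalized counts + 0.5 (vertical axis) against distance from Gdpd5 on chromosome 7 in Mb (horizontal axis), at 4 months (top) and 19 months (bottom); red points are the 9 genes, grey points the other tested genes and the square Gdpd5. Myo7a is at -2.91 and -2.16, and genes on either side of Gdpd5 are found both above and below 0.

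The difference between genotypes was compared between the ages in a fit to all 12 libraries. None of 240 genes within 10 Mb was called for the interaction by limma, against 0.048% of 18731 genes, and 26 had an unadjusted p under 0.05, against 2408 over all genes. Without WT library 3 at 4 months 22 were called within 10 Mb and 2029 in all, and without Gde2KO library B at 19 months 1 was called within 10 Mb. The change of the log2 difference from 4 to 19 months was 0.75 (SE 0.25) for Myo7a, -0.54 (SE 0.16) for Me3, -0.55 (SE 0.21) for Prcp, -0.78 (SE 0.41) for Coa4 and -0.42 (SE 0.20) for Mrpl48. A miss of the threshold does not show that the differences were alike at the 2 ages.

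Relatives of the 9 genes elsewhere in the genome were read from a list of 31 genes. By limma 0 of the 29 tested at 4 months and 0 of the 30 tested at 19 months were called. An unadjusted p under 0.05 was found for 4 and 4 of them, against 2025 of 19035 and 1285 of 18583 over all genes. Their log2 differences ran from -0.95 to 1.72 (median 0.22) and from -0.43 to 1.29 (median -0.02). No relative separated the genotypes in the same direction at both ages. The cytosolic ribosomal protein Rps2 differed by 0.20 (SE 0.20) and 0.09 (SE 0.06), the mitochondrial ribosomal protein Mrpl49 by 0.32 (SE 0.20) and -0.04 (SE 0.09), and the cytosolic malic enzyme Me1 by -0.14 (SE 0.24) and 0.01 (SE 0.06). Myo6, another unconventional myosin, differed by -0.05 (SE 0.12) and 0.26 (SE 0.06).

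Over the 12 libraries, the tested gene whose log2 level was most like that of Myo7a was Gdpd5 (Pearson r = 0.861, n = 12). Genes on chromosomes 2 and 4 were nearly as like it (r = 0.857 and 0.856). The most like Rps3 was Ndufc2 (r = 0.94), also on chromosome 7 and 1.97 Mb from Gdpd5. Genes on chromosomes 10 and 3 followed closely (r = 0.931 and 0.930). For the other genes the most alike was Agtr2 for Mrpl48 (r = 0.88), Insl3 for Rnf169 (r = 0.89), Spata9 for Chrdl2 (r = 0.90), Rad17 for Acer3 (r = 0.97), Gpbp1l1 for Coa4 (r = 0.95), Fmnl3 for Prcp (r = 0.91) and C1qtnf5 for Me3 (r = 0.94), on other chromosomes. These are descriptions over libraries that share genotype, age, depth and scaling.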

How the data were processed

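Cortex RNA of 12 mice was sequenced as polyA RNA. The authors mapped reads to the GRCm38 transcriptome with Kallisto and normalized them in Sleuth. The deposited signal values are estimated counts per transcript divided by a library's size factor (normalized counts), and TPM divided in the same way. The submitters' processing notes name bcl2fastq 2.17, Trimmomatic 0.36 and STAR 2.5.2b, and the versions of Kallisto and Sleuth are not given in the sources used here. All table columns were assigned to a sample, and 0 were left over. The 19-month columns carry no replicate number and were named A to C.

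The 9 genes and the lists used here were chosen with earlier results of these data known. Transcripts were summed to 36047 genes by gene identifier and placed by GENCODE annotation on GRCm38, and 1673 of 118489 transcripts had no gene. Genes with 5 or more normalized counts in 47% of the libraries fitted were tested with limma 3.58.1 (trend, R 4.3.3) on log2(value + 0.5), with Benjamini-Hochberg adjustment over all genes tested. Calls needed an adjusted p under 0.1 together with a natural-log fold change beyond 0.5, and for the interaction the adjusted p alone. The log2 differences of normalized counts are on this scale, which understates those of low genes. Those on the TPM scale had 0.05 added instead, and ratios of means had nothing added. For transcript usage, diffSplice (limma) was fitted to transcripts averaging at least 5 normalized counts, with calls at an adjusted p under 0.1 and a TPM share that differed by over 10 percentage points. It stood in for the intron-cluster test of the study, which needs alignments, as limma did for its Sleuth test, which needs files not used here. The labels do not say whether libraries of a group share a litter, so p-values measure the spread between these libraries.

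Reads per library were estimated from the normalized counts that 1 read is worth, and counting error alone limits low values. Words of 31 bases were compared between all annotated transcripts on both strands. Fits were tested on simulated data. Genes named are the 9, Gdpd5, its direct neighbours, Mrpl48-ps, called genes within 10 Mb, listed relatives and, for each gene, the one with the highest correlation, while transcripts named have a share of at least 10% in a group. Alternatives are given in the closing section.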

Additional observations from a re-analysis of the deposited data

How the results depend on the processing

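The number of genes within 10 Mb of Gdpd5 called at 4 months was 1, and it was 2 with no filter, 0 on gene sums of TPM, 3 in a fit to all 12 libraries (Me3, Myo7a and Prcp) and 1 to 16 when 1 library was left out, the 16 without WT library 3. The 19-month count was 3, and 2 to 4 under every alternative run. For the interaction it was 0, 1 with no filter, and 0 to 22 when 1 library was left out, the 22 without WT library 3 at 4 months and 1 without Gde2KO library B at 19 months. For transcript usage at 4 months it was 5, and it was 3 at a transcript mean of 20, 2 on the logit of shares, 3 at an adjusted p under 0.05 and 2 to 10 when 1 library was left out: 3 without WT library 1, 2 without WT library 2, 2 without Gde2KO library 1, 10 without Gde2KO library 2 and 3 without Gde2KO library 3. Usage calls at 19 months numbered 1, and 0 on the logit of shares, 7 without both libraries of low depth and 1 to 3 when 1 library was left out, with 3 without Gde2KO library A, 3 without library B and 2 without library C. The cause of these moves was not tested.

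With the replicate number as a replicate block at 4 months, 1 gene was called within 10 Mb and 3 were called for transcript usage (Acer3, Me3 and Rps3). Deviations of same-numbered libraries correlated at 0.06, 0.01 and -0.05, so the numbers were not taken to pair the libraries, and the 19-month columns carry none.

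Of 268 alternative values of the log2 differences of the 9 genes, 255 moved by less than the spread between libraries, and 259 had the sign of the main value. Of 135 for transcript shares, 123 and 134 did. The exceptions in sign were Acer3 at both ages, Rps3 at 4 months, Me3 at 19 months on the TPM scale, and Coa4-202 at 19 months. Groups of 3 limit every comparison, and in the shallowest library 3 reads were worth 24.9 normalized counts.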
